A study of Mus with 5 samples.

Results

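The 7 genes described here encode titin and the proteins that anchor it or lie beside it in the sarcomere, the contractile unit of striated muscle. They are *Ttn*, *Mybpc3*, *Myom1*, *Des*, *Actn2*, *Ldb3* and *Csrp3*. They were taken by their Ensembl identifiers, in a rule that uses no measured value but was written with earlier results of these data known, and all 7 have values in the deposited table of 12857 genes. RNA was compared between mouse hearts with myocardial *Bmp2* gain and wild type (WT) hearts at E14.5. The transgenic embryos, labelled Nkx2.5CRE;Bmp2, carry 1 *Nkx2.5Cre* allele and 1 *Bmp2tg* allele, in which Cre removes a floxed cassette and a CAG promoter at the *Rosa26* locus then drives *Bmp2* with eGFP. The *Nkx2.5Cre* line is active in cardiac progenitors and myocardium, and the controls are labelled WT only. Embryos without the transgene from a cross of *Bmp2tg* males with homozygous *Nkx2.5Cre* females, which the study also used, would carry Cre, and whether the sequenced WT hearts did was not given in the sources used here. There were 3 transgenic and 2 WT pools, each made from the ventricles and valves of 4 embryos after removal of the atria. The authors had excluded a further WT pool because it clustered poorly with the other WT pools. The *Bmp2tg* line came from 1 clone of G4 embryonic stem cells, derived from a cross of 129S6/SvEvTac with C57BL/6Ncr mice, and the sex of the embryos was not given in the sources used here. Recovered reads came to between 7427905 and 10564780 per pool, and *Bmp2* was at 23.0 to 27.1 CPM in transgenic and 10.2 to 14.1 CPM in WT pools, a value that does not divide transgene reads from endogenous ones.

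In the sarcomere, thick filaments of myosin slide along thin filaments of actin. Titin is a giant protein that runs from the Z-disc, where thin filaments of neighbouring sarcomeres meet, to the M-band, where thick filaments are held in register. The Z-disc also binds signalling and stretch-responsive proteins, and desmin filaments tie neighbouring Z-discs to each other and to the cell membrane. In the embryonic heart these genes are transcribed in cardiomyocytes and are used as measures of how far the contractile apparatus has been built, which is why they bear on the question of chamber maturation in transgenic hearts.

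None of the 7 transcripts passed the test for a difference between transgenic and WT hearts. Values are in CPM, reads per 1000000 reads of a library size scaled by the authors. Differences in log2(CPM + 0.5) were tested with limma, and a gene was called when its p, after Benjamini-Hochberg adjustment across the 12857 genes, was at most 0.05. The count of called members was 0 of 7, against 2.82% of all genes and 5.21% of the 211 genes with a mean of at least 500 CPM, a range that holds all 7. Of all genes 1.59% (205) fell and 1.22% (157) rose, or 251 and 125 with the libraries rescaled to the same total. The count was also 0 with DESeq2, limma with voom weights, and edgeR's quasi-likelihood and exact tests. Of the 12857 genes these called 229, 361, 398 and 482 (3.75%). Without adjustment 1 of the 7, *Des*, had a limma p under 0.05, against 17.7% of all genes and 37.4% of those with at least 500 CPM. The log2 fold changes lay between -0.14 and 0.11. Their median size was 0.10, against 0.10 for all genes and 0.11 for the genes of at least 500 CPM. *Ttn*, *Mybpc3*, *Myom1* and *Des* had values below 0 and *Actn2*, *Ldb3* and *Csrp3* values above 0, so that the median over the members was -0.044, against 0.0045 for all genes.

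The members were among the most deeply read genes. They held between 3803 and 40790 reads each in a pool, and ranked from 16 (*Ttn*) to 189 (*Des*) of 12857 by mean CPM. The error of counting reads was therefore 0.495% to 1.62% of a value, smaller than the spread of 2.33% to 6.08% (coefficient of variation, CV) between transgenic pools. PCR copies of a molecule are not recognised in these libraries, so this is the error of counting alone. The WT pools were closer, with a CV of 0.168% to 4.37%, but only 2 pools give that figure. For *Mybpc3*, *Actn2*, *Myom1*, *Des* and *Csrp3* the WT CV was below the error of counting. A further WT pool had been excluded for clustering poorly with these, so their spread may understate the variation between WT pools. CPM is not divided by transcript length, so levels are compared between pools and not between genes. Values are for a gene as a whole, and splice forms, of which *Ttn* and *Ldb3* have many, were not told apart.

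**Figure D1:**
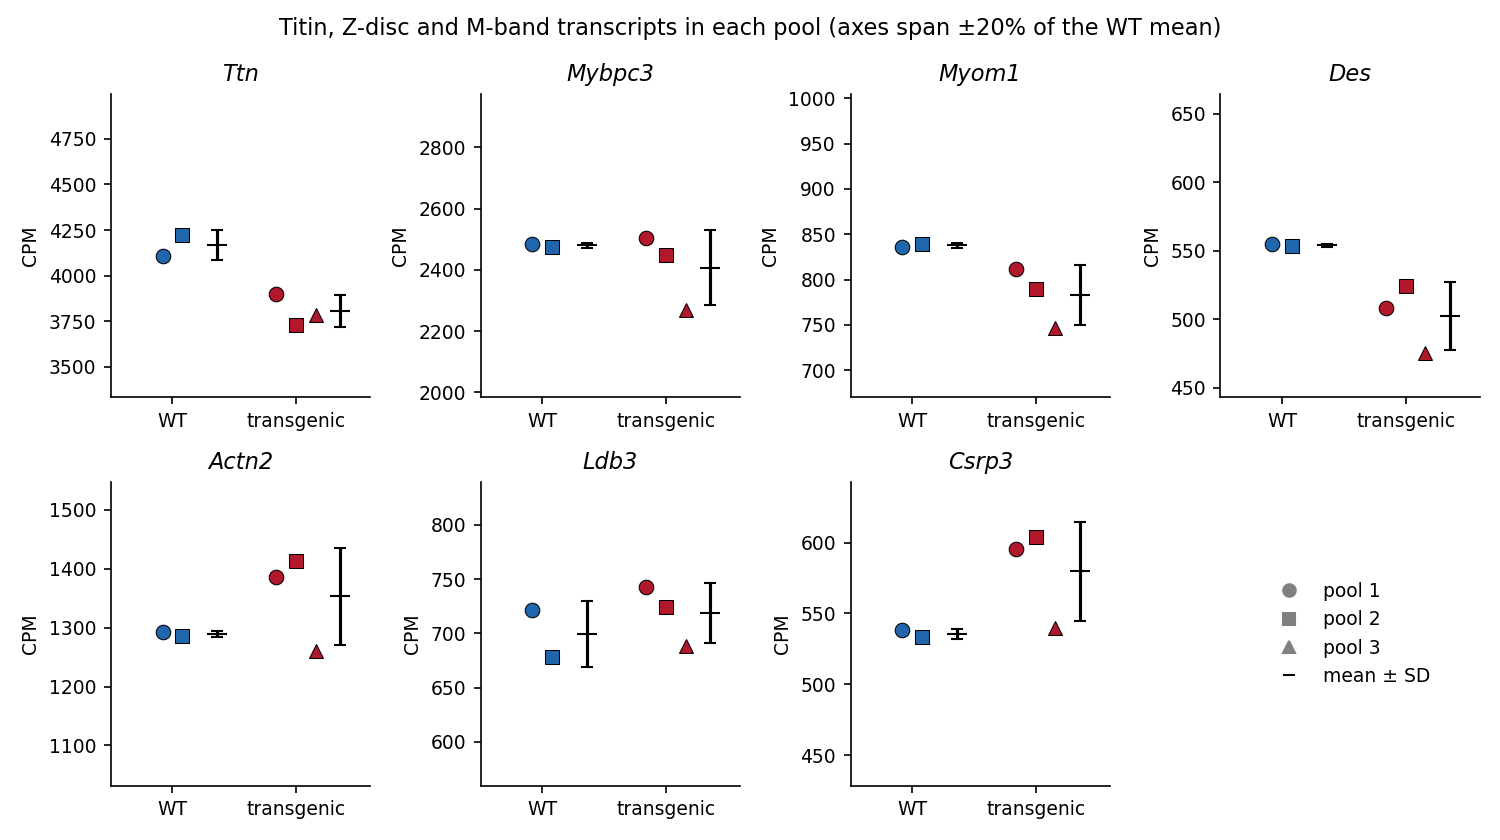
CPM of each member in the 2 WT pools (blue) and the 3 transgenic pools (red), with a circle for pool 1, a square for pool 2, a triangle for pool 3 and the mean and SD of each group in black; each axis spans 20% either side of the WT mean and does not start at 0. *Ttn*, *Myom1* and *Des* were lower in every transgenic pool than in both WT pools, *Csrp3* was higher in every transgenic pool, and the groups overlapped for *Mybpc3*, *Actn2* and *Ldb3*.

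*Ttn* (ENSMUSG00000051747, chromosome 2 of GRCm38.p6, 76703980 to 76982557) encodes titin, the filament that sets the passive stiffness of the sarcomere and serves as a template for its assembly. Its level was 3901 CPM in transgenic pool 1, 3727 CPM in pool 2 and 3785 CPM in pool 3, against 4108 and 4224 CPM in WT pools 1 and 2. All 3 transgenic pools lay below both WT pools, with a gap of 207 CPM between the nearest pools. Mean levels were 3804 ± 88.7 CPM in transgenic hearts (SD, n = 3) and 4166 ± 82.5 CPM in WT hearts (SD, n = 2). The log2 fold change was -0.13 ± 0.071 (standard error), with a limma adjusted p of 0.352. Its 95% interval ran from -0.28 to 0.020, which is -17.8% to 1.41%.

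*Mybpc3* (ENSMUSG00000002100, chromosome 2, 91118114 to 91136516) encodes cardiac myosin-binding protein C, which binds titin and myosin in the thick filament and regulates cross-bridges. Its transgenic pools were at 2504, 2449 and 2268 CPM and its WT pools at 2485 and 2475 CPM. Transgenic pool 1 was above both WT pools and the other two were below them. The log2 fold change was -0.044 (95% interval -0.19 to 0.10, limma adjusted p = 0.787).

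*Myom1* (ENSMUSG00000024049, chromosome 17, 71003332 to 71126856) encodes myomesin 1, which links titin and myosin at the M-band. Transgenic levels were 812, 790 and 747 CPM, and WT levels 836 and 840 CPM. Every transgenic pool was below both WT pools, by 24.3 CPM at the nearest. Its log2 fold change was -0.099 (95% interval -0.22 to 0.023, limma adjusted p = 0.388).

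*Des* (ENSMUSG00000026208, chromosome 1, 75360292 to 75368579) encodes desmin, the muscle intermediate filament protein. In transgenic hearts it was at 508, 524 and 476 CPM (mean 503 ± 24.7 CPM, SD, n = 3), and in WT hearts at 555 and 553 CPM (mean 554 ± 0.930 CPM, SD, n = 2). All 3 transgenic pools were below both WT pools, and the WT pools differed from each other by less than the error of counting. The log2 fold change was -0.14 (standard error 0.057), the largest in size of the 7. Its limma p was 0.0246 before adjustment, smaller in 1576 other genes, and 0.201 after it. This is the only member called under any alternative, and the call came with quantile normalization, which called 288 of the 12857 genes. Rescaling the libraries to the same total did not call it (limma adjusted p = 0.119). After quantile normalization the log2 fold change was -0.20 and the limma adjusted p was 0.0327, within a range of 0.0327 to 0.512 over the 19 alternatives, of which the other 18 did not call it. A long non-coding RNA, *Gm15179*, overlaps *Des*, and whether its reads were counted apart from those of *Des* was not given in the sources used here.

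The other 3 members encode proteins of the Z-disc. *Actn2* (ENSMUSG00000052374, chromosome 13, 12269426 to 12340732) encodes alpha-actinin 2, which crosslinks actin and binds titin there. Levels were 1387, 1414 and 1260 CPM in transgenic hearts, against 1293 and 1286 CPM in WT hearts. Transgenic pools 1 and 2 were above both WT pools and pool 3 was below both. The log2 fold change was 0.068 (95% interval -0.068 to 0.20, limma adjusted p = 0.622). Another non-coding gene, *Gm40667*, overlaps *Actn2*, with the same limit.

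*Ldb3* (ENSMUSG00000021798, chromosome 14, 34526699 to 34590314) encodes the PDZ and LIM protein also called ZASP or Cypher, which binds alpha-actinin. Transgenic hearts had 743, 724 and 689 CPM and WT hearts 721 and 678 CPM, so that the groups overlapped. This gene had the widest spread between WT pools of the 7, and its log2 fold change of 0.038 (95% interval -0.084 to 0.16, limma adjusted p = 0.782) had no stable direction. It was -0.0061 without WT pool 2 and -0.0054 after quantile normalization.

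*Csrp3* (ENSMUSG00000030470, chromosome 7, 48830398 to 48848051) encodes muscle LIM protein, a Z-disc protein that has been implicated in the response of cardiomyocytes to stretch. Transgenic hearts had 596, 604 and 540 CPM, WT hearts 538 and 533 CPM. All 3 transgenic pools were above both WT pools, although pool 3 exceeded the higher WT pool by only 1.72 CPM. Means were 579.6 ± 34.8 CPM (SD, n = 3) in the former and 536 ± 3.41 CPM (SD, n = 2) in the latter. The log2 fold change was 0.11 ± 0.060 (standard error; 95% interval -0.014 to 0.24), with a limma adjusted p of 0.340.

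For 4 of the 7 members the groups did not overlap, 3 of them lower and 1 higher in transgenic hearts. This was so for 35.7% of all genes (18.0% lower and 17.7% higher), and for 62.1% of the 211 genes with a mean of at least 500 CPM, so the share among the members was no higher than among genes read as deeply. The 95% intervals of the 7 together covered changes from -17.8% to 18.0%. The smallest log2 fold change that was called among the genes of at least 500 CPM was 0.23 in size. The levels of the members together came to 10449, 10232 and 9763 CPM in the transgenic pools and to 10536 and 10589 CPM in the WT pools, which is 0.984% to 1.03% of the reads with a value in transgenic hearts and 1.06% to 1.07% in WT hearts. *Ttn* alone gave 36.4% to 39.9% of the reads of the members in a pool. Transgenic pool 3 had the lowest value of the transgenic pools for 6 of the 7 genes, the exception being *Ttn*.

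**Figure D2:**
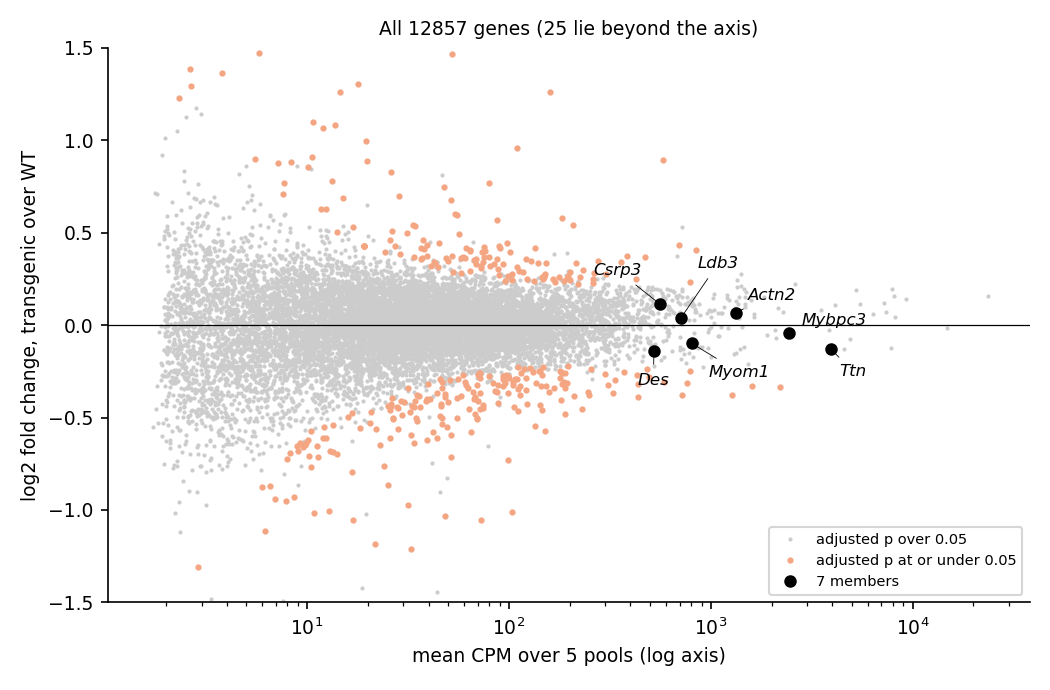
Log2 fold change between transgenic and WT hearts against the mean CPM over the 5 pools (log axis), with 1 point a gene; called genes are orange and the members black, and 25 genes lie beyond the vertical axis. The members lie on the right, among the genes with many reads, and no member reaches 0.23, the smallest size called among genes of at least 500 CPM.

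The ratio of a gene to another within a pool does not depend on how the libraries are scaled. Ratios of recovered reads were therefore compared for all 21 pairs of members. For the 12 pairs of a Z-disc gene (*Actn2*, *Ldb3* or *Csrp3*) with another member (*Ttn*, *Mybpc3*, *Myom1* or *Des*), the ratio was higher in all 3 transgenic pools than in both WT pools in 12 of 12, by a median of 1.13-fold and from 1.06-fold to 1.19-fold. The gap between the groups was as small as 1.90% and was wider than the widest range within a group in 7 of the 12. That smallest gap was for *Ldb3* to *Mybpc3*. Counting error was 1.13% to 1.41% of a value for *Ldb3* and 0.618% to 0.743% for *Mybpc3*. The counting error of a ratio holds that of both genes and was not worked out, so these gaps and ranges were not set against it. Among the 3 pairs of Z-disc genes the groups did not overlap in 1, and among the 6 pairs of the other members in 2, both of which involve *Mybpc3*. The total was 15 of 21 pairs, or 71.4%, against 34.3% of all pairs of genes with reads in every pool and 51.6% of pairs of genes with at least 500 CPM. The pairs share genes and pools and are not independent. The division into Z-disc and other genes was made with the levels known and coincides with the sign of the fold changes. The mean direction of the 12 ratios therefore follows from the division. It is also no clean division by structure, since titin and desmin filaments reach the Z-disc too. The shares over undivided pairs are no background for the 12, and no test over the pairs was made. For any single ratio the two-sided p of the exact permutation test was taken as 2 times the smaller tail. With 3 pools against 2 it cannot fall below 0.2 by that rule, and all 15 had this value.

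The ratio of *Csrp3* to *Des* had the widest gap between the groups and was picked out for that. It was 1.17, 1.15 and 1.13 in transgenic hearts, against 0.970 and 0.964 in WT hearts. The lowest transgenic ratio was 17.0% above the highest WT ratio, and the log2 difference of 0.25 ranged from 0.24 to 0.27 when single pools were left out. A pair picked for its gap keeps that gap when a pool is left out, so this range is no added evidence. The *Actn2* to *Csrp3* ratio was 2.33, 2.34 and 2.33 in transgenic hearts, against 2.40 and 2.41 in WT hearts. Both genes had their lowest transgenic value in pool 3. Within a group this ratio spread by less than the counting error of *Csrp3* alone (1.27% to 1.59% of a value). Its closeness within a group therefore cannot show that these genes move together. The *Ttn* to *Des* ratio overlapped between the groups, at 7.68, 7.11 and 7.96 in transgenic pools and 7.41 and 7.63 in WT pools.

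**Figure D3:**
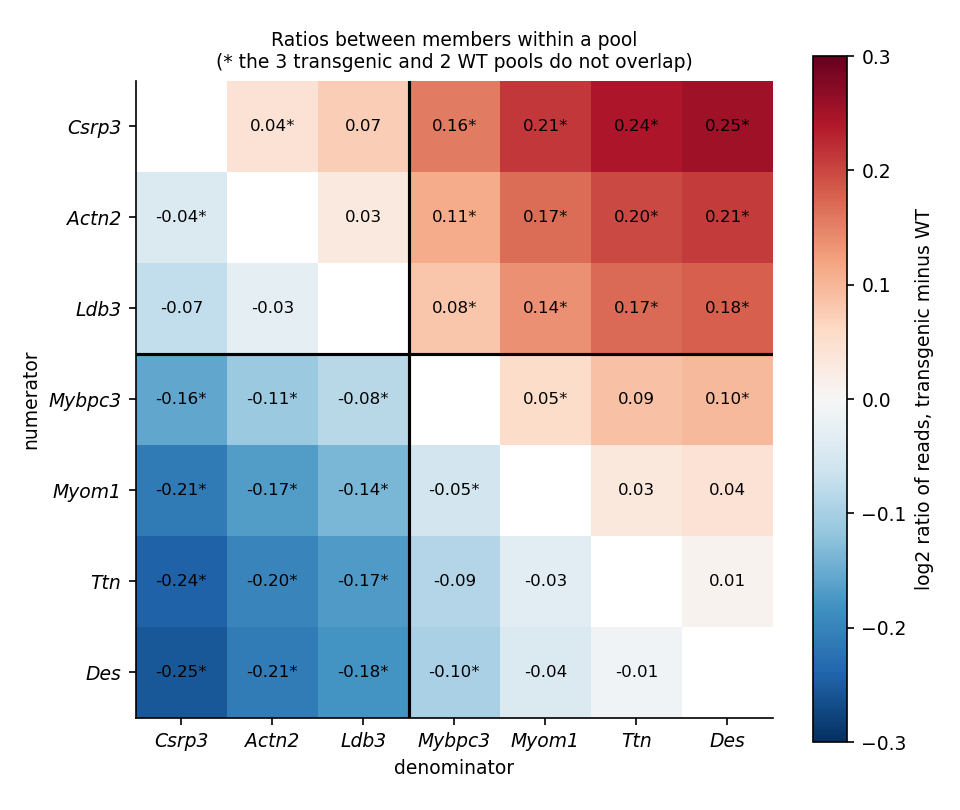
Difference in the log2 ratio of reads (transgenic minus WT) for each pair of members, numerators in rows and denominators in columns; black lines divide the 3 Z-disc genes from the others, and an asterisk marks pairs whose 3 transgenic and 2 WT pools do not overlap. The 12 pairs of a Z-disc gene over another member, at the upper right, are all above 0 and all carry the asterisk, while *Ttn*, *Des* and *Myom1* differ from each other by at most 0.043 without an asterisk. The division coincides with the sign of the fold changes, so that values above 0 at the upper right follow from it.

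Other genes of the same structures could be described only in part. Of 60 such genes listed by symbol, 7 could be paired with an identifier, each through the study's own list of changed genes, so their directions are not independent evidence and no count over the lists is given. Of the Z-disc genes, *Ankrd1*, which encodes a stretch-responsive ankyrin-repeat protein that binds titin, was at 828, 869 and 635 CPM in transgenic hearts, against 538 and 605 CPM in WT hearts. It rose by 0.43 on the log2 scale (limma adjusted p = 0.0273). *Tcap*, which encodes telethonin, the cap on the Z-disc end of titin, rose by 0.29 on the log2 scale (limma adjusted p = 0.0311), to 69.2 ± 3.28 CPM (SD, n = 3) against 56.4 ± 0.734 CPM in WT hearts (SD, n = 2). *Fhl2*, a LIM protein gene, was at 227, 255 and 220 CPM against 199 and 196 CPM and was not called (log2 fold change 0.24, limma adjusted p = 0.0568). The edgeR quasi-likelihood and exact tests did call *Fhl2* (adjusted p = 0.0481 and 0.0305), among 5 of 18 alternatives that did.

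Among genes of the M-band and A-band, *Trim63* encodes MuRF1, a ubiquitin ligase that binds M-band titin. It rose by 0.34 (limma adjusted p = 0.00595), to 167 ± 9.27 CPM (SD, n = 3) against 132 ± 1.15 CPM in WT hearts (SD, n = 2). *Ckm*, the muscle creatine kinase gene, fell by 0.27 on the log2 scale, from 483 and 480 CPM in WT pools to 418, 411 and 371 CPM in transgenic pools (limma adjusted p = 0.0232). *Mybpc1*, which encodes the slow skeletal form of myosin-binding protein C, was low in all pools, with 43 to 107 reads, and fell by 0.93 (limma adjusted p = 0.0157), to 6.25 ± 1.70 CPM (SD, n = 3) against 12.1 ± 1.10 CPM in WT hearts (SD, n = 2). *Dsp*, which encodes desmoplakin, the anchor of desmin filaments at desmosomes, was at 732, 668 and 684 CPM in transgenic hearts, against 866 and 856 CPM in WT hearts, and fell by 0.31 on the log2 scale (limma adjusted p = 0.00740).

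In the limma fit used for calling, these calls rested on having both WT pools and on the variance trend. With WT pool 1 or WT pool 2 left out, in which case the remaining WT pool is assumed to vary like the transgenic pools, none of the 6 genes was called (limma adjusted p from 0.122 to 0.352). The same held for limma without the variance trend on all 5 pools (adjusted p from 0.182 to 0.302). The fold changes moved less, that of *Trim63* being 0.33 without WT pool 1 and 0.34 without WT pool 2 and that of *Dsp* -0.30 and -0.32. *Ankrd1* and *Tcap* were also not called without transgenic pool 1 (adjusted p = 0.0800 and 0.0944) or transgenic pool 2 (adjusted p = 0.0666 and 0.0776). All 6 genes were called by edgeR's quasi-likelihood and exact tests and by limma with voom weights. DESeq2 called *Trim63*, *Ckm*, *Mybpc1* and *Dsp* (adjusted p = 0.00190, 0.00384, 0.0172 and 2.34e-05) but not *Ankrd1* or *Tcap* (adjusted p = 0.248 and 0.108). The alternatives called *Trim63*, *Ckm* and *Mybpc1* in 15 of 18 cases and *Dsp* in 16 of 19. Over all alternatives that gave a value, *Ankrd1* was called in 12 of 19 and *Tcap* in 11 of 18, and the adjusted p (limma, edgeR or DESeq2) ranged over 1.44e-06 to 0.352 and over 0.0157 to 0.258.

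**Figure D4:**
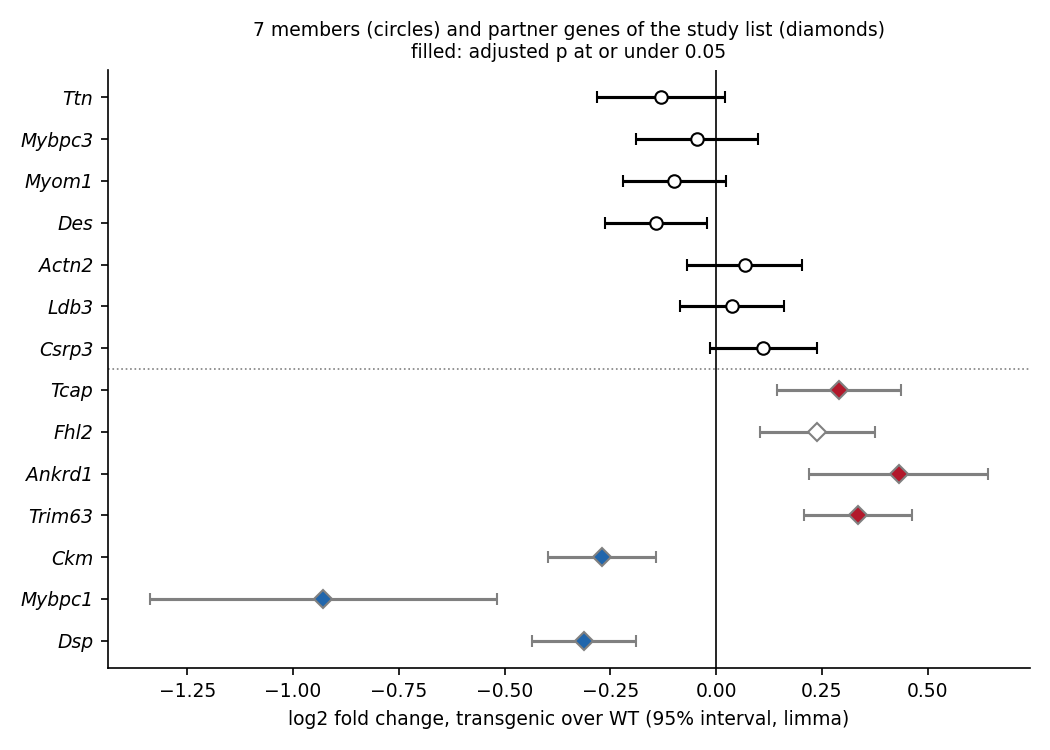
Log2 fold change with its 95% interval (limma) for the 7 members (circles) and the 7 partner genes that could be paired with identifiers (diamonds); filled symbols have an adjusted p at or under 0.05. The members lie between -0.14 and 0.11 and are all open, while the partner genes, which come from the study's list of changed genes, lie further from 0.

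Few markers of the cell types present could be followed beside these genes. Of 55 listed markers, 9 were paired with identifiers, all through the same list of changed genes, and none for red cells, skeletal muscle or white cells. *Ryr2*, the calcium release channel gene of cardiomyocytes, fell by 0.28 on the log2 scale (480, 425 and 459 CPM in transgenic pools, 548 and 556 CPM in WT pools, limma adjusted p = 0.0175). *Kdr* of endothelium, *Pdgfra* of mesenchyme and *Myh11* of smooth muscle fell by 0.46, 0.34 and 0.71, and *Tbx18* of epicardium rose by 0.37, with limma adjusted p-values of 0.00286, 0.00919, 0.0204 and 0.00476. *Myl7*, a myosin light chain gene that is strongest in atria, rose by 0.90 (limma adjusted p = 0.000166), to 713 ± 137 CPM (SD, n = 3) against 379 ± 7.71 CPM in WT hearts (SD, n = 2). *Ryr2*, *Kdr*, *Pdgfra*, *Tbx18* and *Myh11* were not called without WT pool 1 or WT pool 2 (limma adjusted p from 0.0549 to 0.258), and neither they nor *Myl7* were called by limma without the variance trend (adjusted p from 0.152 to 0.239). *Myh11* was also not called without transgenic pool 2 (limma adjusted p = 0.0662) or by DESeq2 (adjusted p = 0.0526). *Cdh5*, *Dcn* and *Pdgfrb* had log2 fold changes of -0.25, -0.22 and -0.24 and were not called by limma (adjusted p = 0.0563, 0.0736 and 0.0519). The edgeR exact test called *Cdh5* and *Pdgfrb* (adjusted p = 0.0305 and 0.0406) but not *Dcn* (adjusted p = 0.0522). Of 18 alternatives, 6 called *Cdh5*, 2 *Dcn* and 7 *Pdgfrb*. The part of such differences in the values of the members was not tested, and in RNA from whole ventricles and valves fewer cardiomyocytes and less RNA per cardiomyocyte cannot be told apart.

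The size of the differences in the members moved with the normalization of the libraries more than with the test. With the libraries rescaled to the same total, the log2 fold change of *Ttn* was -0.15 and that of *Des* -0.16, and with quantile normalization they were -0.17 and -0.20. The same step brought *Csrp3* down to 0.065 and *Actn2* to 0.029. Among the 211 genes of at least 500 CPM, 65.4% had a higher mean log2 value in transgenic hearts, with a median log2 fold change of 0.068. With pool 3 left out of the transgenic group, *Csrp3* was at 0.16 and *Actn2* at 0.12, both with a limma adjusted p over the threshold (0.115 and 0.262), and *Mybpc3* was at -0.0019. Without transgenic pool 2 the values went the other way for *Csrp3* and *Actn2*, to 0.082 and 0.035. *Mybpc3* was at -0.073 without transgenic pool 1.

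**Figure D5:**
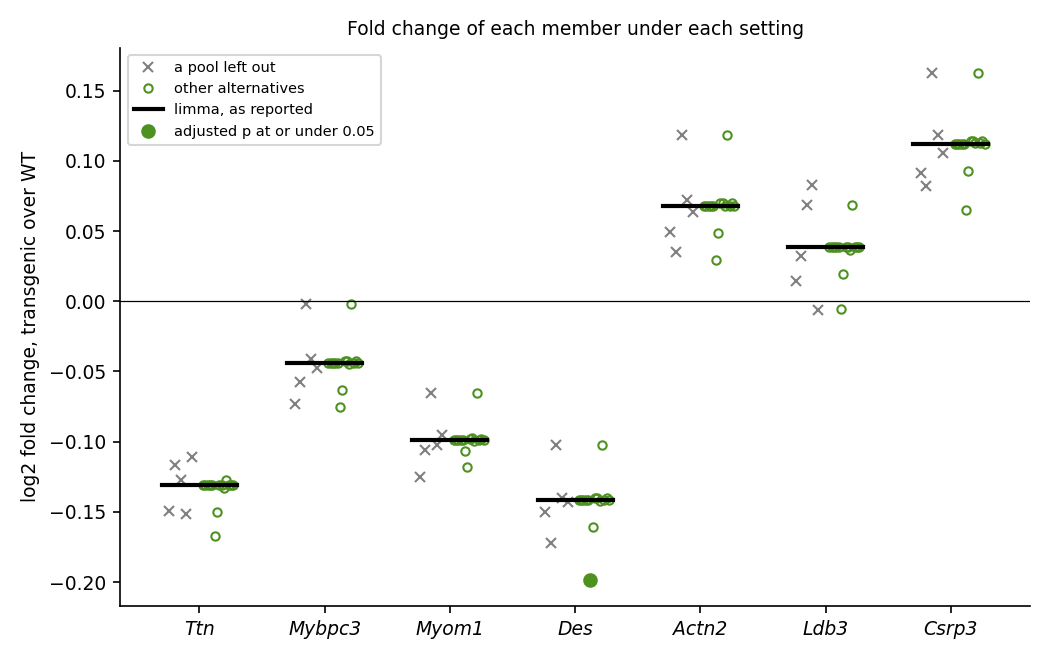
Log2 fold change of each member as reported (black bar), with each pool left out (crosses) and under the other alternatives (circles); a filled circle has an adjusted p at or under 0.05. *Des* after quantile normalization, at -0.20, is the only filled symbol, and *Ldb3* is the only gene with symbols on both sides of 0.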

How the data were processed

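RNA was analysed from 3 transgenic and 2 WT pools of E14.5 hearts. The authors removed adaptors with cutadapt, quantified Ensembl genes of GRCm38 with RSEM, and named edgeR for differential expression. The authors deposited CPM, counts per 1000000 relative to a scaled library size, after leaving out genes with low values. Columns were matched to pools by title, and 0 columns were left unused. Every value (100%) was within 0.01 reads of a whole multiple of the step that 1 read is worth, which was read from the gaps between neighbouring values, since the smallest value above 0 was worth 7 reads in transgenic pool 1 and 3 in WT pool 2. The recovered reads came to 7427905 to 10564780 per pool. The chi-square of reads per gene was 2.24 between WT pools and 3.40 to 3.96 between transgenic pools (1 for sampling noise alone), so no library was taken for a repeat of another. Between a transgenic and a WT pool it was 3.93 (transgenic pool 3 with WT pool 2) to 8.07 (transgenic pool 2 with WT pool 1). These values overlap those between transgenic pools. Pools were counted as replicates because the labels number them separately.

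CPM are not counts, so log2(CPM + 0.5) was fitted with limma 3.58.1 in R 4.3.3 (variance trend, no covariates). The filter, at least 1 CPM in at least 2 libraries, removed 0 genes. Count tests on recovered reads (edgeR 4.0.16, DESeq2 1.42.0) were alternatives, and the tests were tested on simulated data. Tables and figures were made with Python 3.11.15, pandas 2.3.3, scipy 1.17.1 and matplotlib 3.10.9. Positions are from RefSeq for GRCm38.p6, matched by symbol for 7 of 7 members. That table pairs 0 genes with Ensembl identifiers, so other genes were named only through the study's list of 406 changed genes, which holds 0 of the members. The rule named all 7 members and each paired partner gene past the threshold, with up to 3 others a list. The members and lists were chosen with earlier results of these data known. The voom fit, edgeR with TMM factors computed anew, the fit to genes of at least 500 CPM and the ratios were chosen after seeing the data. Sequences were not used here. A pool number is no shared litter or day in the labels, so the numbers were not used to pair samples.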

Additional observations from a re-analysis of the deposited data

How the results depend on the processing

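The count of called members stayed at 0 under 18 of 19 alternatives and was 1 after quantile normalization, when *Des* was called at a log2 fold change of -0.20. The direction of *Ttn*, *Mybpc3*, *Myom1*, *Des*, *Actn2* and *Csrp3* held under all 19, although *Mybpc3* came to -0.0019 without transgenic pool 3 and *Actn2* ran from 0.029 to 0.12. *Ldb3* turned to -0.0054 after quantile normalization, and with a pool left out it ran from -0.0061 to 0.083. Not all 19 alternatives were distinct. Omitting the filter changed nothing, since the filter had removed 0 genes. The edgeR quasi-likelihood test gave nearly the same values with TMM factors computed anew. Over all genes, 362 were called. The count was 10 for limma without the variance trend, 229 for DESeq2 and 11 when only the 211 genes of at least 500 CPM were fitted. With each pool left out it ran from 43 to 464, being 43 without WT pool 2, 45 without WT pool 1 and 226 without transgenic pool 2. With the pool number as a replicate block 655 genes were called and 0 members. Pool 3 has no WT partner, so this fit gives the fold changes of pools 1 and 2 alone. Same-numbered pools did not deviate together, with correlations of -0.026 for number 1 and -0.050 for number 2 across genes. Counting error was at most 1.62% of a value, smaller than the spread between transgenic pools for each member. The spread between WT pools was below counting error for *Mybpc3*, *Actn2*, *Myom1*, *Des* and *Csrp3*, so that comparison cannot be made from the WT pools.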
